A study of Mus musculus with 12 samples.

Results

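The genes described here are 10 genes of microglia and of myeloid cell signalling: Tyrobp, Aif1, Cx3cr1, C1qa, C1qb, C1qc, Csf1r, Ptprc, Vav1 and Cyth4. They were chosen by name and with earlier results of these data known, out of 19751 mouse genes that could be named on the array. All their probes were read on every array. They had 14 probes, and 13 of these cleared the background in 3 or more of the 12 arrays; all 10 genes were among the 15370 genes tested. The second Vav1 probe was not well above background on any array and was not tested.

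The samples were GFP-positive medial telencephalon cells of CD-1 mice, electroporated at E11.5 and sorted 24 hours later, at E12.5 (embryonic days), with an expression vector for nuclear EGFP in every group. One group received siRNA set 1 against Dmrt3 and Dmrta2, one received siRNA set 2 against the same genes, one received an expression plasmid for Dmrta2, and the control group received control siRNAs, with 3 arrays each. No group received an empty plasmid, so the overexpression arrays had only the control siRNAs to be set against. The series states that replicates were independent but not whether they came from separate litters, so the p-values measure the spread between these samples. The 12 arrays lay on 3 slides with 1 array of each group, always at the same position, so position and group cannot be told apart.

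Microglia are the resident macrophages of the brain. They arise from yolk sac progenitors, enter the neural tube during embryonic development, and are a separate lineage from the neural progenitors of the telencephalon. They depend on the receptor CSF1R and its ligands CSF1 and IL-34, they sense the neuronal ligand CX3CL1 through CX3CR1, and they signal through receptors such as TREM2 that pair with the adaptor TYROBP (DAP12). The complement protein C1q, built from chains encoded by C1qa, C1qb and C1qc, starts the classical complement pathway and is made in the brain mainly by microglia. VAV1, CYTH4 and the phosphatase CD45, encoded by Ptprc, act inside blood-lineage cells more widely.

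Each level is the log2 of Agilent's processed signal minus the log2 75th percentile of the same array, so 0 is the 75th percentile of that array. That percentile was 572 to 1143 signal units. The share of spots well above background was 68.9% to 72.2% with siRNA set 1, 70.0% to 71.9% with siRNA set 2, 70.0% to 70.9% with the overexpression plasmid and 67.1% to 69.0% with control siRNAs. The processed signals of the 9 genes other than Csf1r were dim, from 5.71 to 284 units over all arrays with a median of 51.2. Differences were tested with limma over all genes and all arrays, and a gene is called where its Benjamini-Hochberg adjusted p is under 0.05. All comparisons with the control group share the same 3 control arrays. These are bulk samples, in which fewer cells of a type and less RNA per cell cannot be told apart.

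The targeted genes were read first as a check of the labels. Dmrt3 levels were -1.13, -0.13 and -0.72 with siRNA set 1, -0.81, -0.04 and -0.47 with siRNA set 2, -0.10, 0.62 and 0.34 on the overexpression arrays, and 0.06, 0.33 and 0.68 with control siRNAs. All 6 siRNA arrays lay below all controls, with a mean log2 difference of -0.90 ± 0.26 (SE; adjusted p = 0.161, limma; 0.0280 with the slide as a block). Dmrta2 levels were 2.14, 1.84 and 1.89 with siRNA set 1, 2.41, 2.44 and 1.92 with siRNA set 2, 2.10, 2.18 and 1.93 on the overexpression arrays, and 2.72, 2.37 and 2.61 with control siRNAs. The arrays labelled Dmrta2 overexpression were therefore all lower than the controls for this probe, by -0.49 ± 0.16 (SE; adjusted p = 0.595, limma), against their label. Whether the probe can read the transcript of the plasmid is not known here, so directions for this group rest on the label, and it is called the group labelled overexpression.

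Of the 10 genes, 7 had mean levels above those of control cells by 1.52 to 2.17 on the log2 scale, both with siRNA set 2 and in the group labelled overexpression. They were Tyrobp, Aif1, Cx3cr1, C1qa, C1qc, Vav1 and Cyth4. With siRNA set 2 all 7 passed the test, and in the group labelled overexpression all but C1qa did. With siRNA set 1 the differences of these 7 from control were 0.63 to 1.41, and none passed. C1qb, Csf1r and Ptprc were not called in any comparison, and of these C1qb had the largest difference, 0.78 with siRNA set 2.

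**Figure D1:**
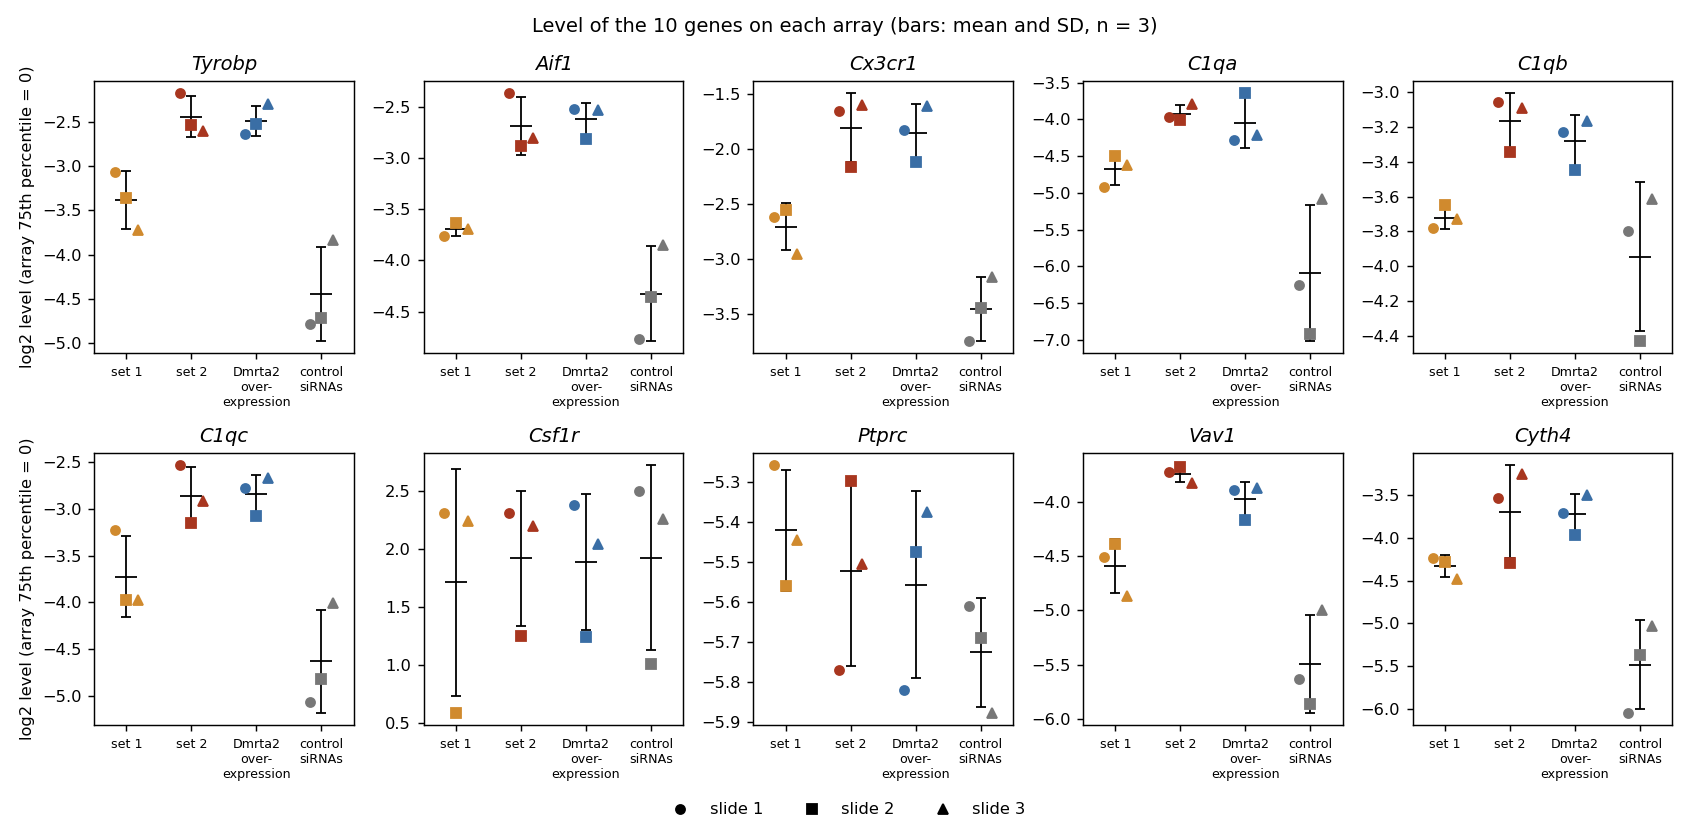
Log2 level of each gene on each array (y axis, 0 is the 75th percentile of the array), with a panel for each gene and the groups along the x axis; symbols mark the slide, and bars give mean and SD of 3 arrays. For 8 genes, all but Csf1r and Ptprc, every array of siRNA set 2 and of the group labelled overexpression lies above every control array.

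The share of all genes behind those counts was small. The 10 genes were chosen with earlier results of these data known, so the contrast with all genes is a description and no test. With siRNA set 2, 7 of 10 genes were called higher than control, while 0.664% of the 15370 genes tested were called in that direction. In the group labelled overexpression 6 of 10 were called higher, against 0.28% of all genes. For siRNA set 1 the count was 0 of 10 by limma, against 0.15% of all genes, and 7 of 10 had an unadjusted p under 0.05, against 6.16% of all genes. With both siRNA sets averaged, 7 of 10 were called, against 0.592% of all genes. None of the 10 genes was called lower in any of these comparisons, in which 0.28% (siRNA set 2), 0% (labelled overexpression), 0.0651% (siRNA set 1) and 0.111% (both sets) of all genes were called lower. Every array lay above every control array for 8 of 10 genes with siRNA set 1 (7.48% of all genes), 8 with siRNA set 2 (10.3%), 8 in the group labelled overexpression (5.92%) and 7 over both siRNA sets (3.29%). The median log2 difference of the 10 genes was 0.83 with siRNA set 1, 1.70 with siRNA set 2 and 1.65 in the group labelled overexpression, beside medians over all genes of -0.01, 0.00 and 0.01.

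The counts depended on single arrays. For siRNA set 2 the count of 7 became 0 without siRNA set 2 replicate 1 and 2 without siRNA set 2 replicate 3, and it was 4 without control replicate 1 or 2, overexpression replicate 1 or 3, or siRNA set 1 replicate 3. For the group labelled overexpression the count of 6 became 0 without its replicate 1 or its replicate 3, 1 without control replicate 1 and 2 without control replicate 2. Over all 12 such fits of this comparison, C1qc was called in only 2 and Cyth4 in only 3. Aif1 was called in 10, Cx3cr1 in 9, Tyrobp and Vav1 in 8 each, and C1qa in 1. The averaged siRNA comparison went to 0 without control replicate 1, to 1 without control replicate 2, siRNA set 2 replicate 1 or siRNA set 1 replicate 2, to 2 without siRNA set 2 replicate 3, to 3 without siRNA set 1 replicate 1 or 3 or overexpression replicate 1 or 3, and to 4 without siRNA set 2 replicate 2. For siRNA set 1 the count became 1, C1qa, without control replicate 3. The 7 genes stayed above the control mean in all of these fits. The share of all genes called was not taken for the fits without single arrays.

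The promoters of these genes were searched because most of the genes moved together. RefSeq promoters of build GRCm38.p6, from 250 bases before to 50 bases after the start site, were at hand for 7 of the 10 genes, with 8 start sites. Tyrobp, C1qa and Csf1r had none at hand, and the 7 included Ptprc and C1qb, which were not called. PU.1, the transcription factor encoded by Spi1 that myeloid cells depend on, binds a purine-rich core, searched here as GAGGAA on either strand. It was in 6 of the 8 promoters, while 28.3% of 32851 mouse promoters held it. The RUNX core TGTGGT was in 2 of 8, against 16.8% of all promoters, and the AP-1 letters TGANTCA were in 0 of 8, against 7.81%. The promoters shown are those of genes called with siRNA set 2 that held a match just before the start site (Aif1 and Vav1), those of the neighbouring C1qb and C1qc, of which only C1qc was called, and that of Cx3cr1, which was called and held no such match. Capitals mark GAGGAA or its reverse complement, and sequences run along the gene.
Aif1, chr17:35176003-35176302, minus strand: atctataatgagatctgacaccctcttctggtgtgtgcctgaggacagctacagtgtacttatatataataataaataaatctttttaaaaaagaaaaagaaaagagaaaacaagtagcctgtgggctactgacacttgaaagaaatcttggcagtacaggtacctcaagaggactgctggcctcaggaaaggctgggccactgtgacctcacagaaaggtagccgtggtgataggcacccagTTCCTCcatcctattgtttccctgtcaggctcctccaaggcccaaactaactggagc
Vav1, chr17:57278850-57279149, plus strand: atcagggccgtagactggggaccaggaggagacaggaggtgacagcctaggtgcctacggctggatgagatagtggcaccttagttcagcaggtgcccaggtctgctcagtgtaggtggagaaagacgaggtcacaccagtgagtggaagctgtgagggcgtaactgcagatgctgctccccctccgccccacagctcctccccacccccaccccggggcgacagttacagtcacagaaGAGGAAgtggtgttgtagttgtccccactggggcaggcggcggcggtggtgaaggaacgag
C1qb, chr4:136886151-136886450, minus strand: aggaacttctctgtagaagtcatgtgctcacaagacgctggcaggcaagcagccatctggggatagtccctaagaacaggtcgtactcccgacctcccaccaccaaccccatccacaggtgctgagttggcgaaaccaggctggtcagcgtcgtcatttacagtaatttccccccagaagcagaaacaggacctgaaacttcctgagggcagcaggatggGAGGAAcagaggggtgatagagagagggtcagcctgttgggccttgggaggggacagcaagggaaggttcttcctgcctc
C1qc, chr4:136892865-136893164, minus strand: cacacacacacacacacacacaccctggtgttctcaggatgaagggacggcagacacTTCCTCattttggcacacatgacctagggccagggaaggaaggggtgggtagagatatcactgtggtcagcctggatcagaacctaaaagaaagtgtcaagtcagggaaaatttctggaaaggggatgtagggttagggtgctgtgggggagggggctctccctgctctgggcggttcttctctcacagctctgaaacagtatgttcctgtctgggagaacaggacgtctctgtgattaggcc
Cx3cr1, chr9:120068247-120068546, minus strand: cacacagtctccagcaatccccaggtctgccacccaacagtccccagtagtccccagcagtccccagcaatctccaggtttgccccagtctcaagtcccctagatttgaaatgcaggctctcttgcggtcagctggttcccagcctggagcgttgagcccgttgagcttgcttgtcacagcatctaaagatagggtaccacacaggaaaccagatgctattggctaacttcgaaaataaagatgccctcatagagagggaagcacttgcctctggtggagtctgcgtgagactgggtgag
Relative to the start site, the first base of the match lay at -7 for Aif1, -11 for Vav1, -30 for C1qb, -193 for C1qc and 29 for Cyth4, whose match lay after the start site. A match of letters is a description and no evidence of binding. Ptprc, which was not called, also held a match, at -158 from 1 of its start sites.

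Tyrobp encodes DAP12, the adaptor whose activation motif passes on signals from TREM2 and related receptors. Its levels were -3.07, -3.36 and -3.73 with siRNA set 1, -2.18, -2.54 and -2.61 with siRNA set 2, -2.64, -2.53 and -2.31 on the arrays labelled overexpression, and -4.78, -4.72 and -3.84 with control siRNAs. Every array of the other groups lay above every control array, and those of siRNA set 1 lay between the controls and the rest. The control of slide 3 was higher than the other two controls, and the nearest siRNA set 1 array, also of slide 3, was close to it. Tyrobp was 4.0-fold higher with siRNA set 2 (log2 difference 2.00 ± 0.26 SE, adjusted p = 0.0123, limma) and 3.87-fold higher in the group labelled overexpression (1.95 ± 0.26, adjusted p = 0.0111). With siRNA set 1 the difference was 1.06 ± 0.26 and did not pass (adjusted p = 0.147). Within slides 1, 2 and 3 it was 1.71, 1.35 and 0.11 for siRNA set 1, 2.60, 2.17 and 1.23 for siRNA set 2, and 2.14, 2.19 and 1.53 for labelled overexpression.

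Aif1 encodes IBA1, the actin-binding protein used most often to stain microglia. Its levels were -3.76, -3.63 and -3.69 with siRNA set 1, -2.37, -2.89 and -2.81 with siRNA set 2, -2.52, -2.81 and -2.54 on the arrays labelled overexpression, and -4.77, -4.35 and -3.85 with control siRNAs. The siRNA set 1 arrays were close together and just above the highest control, while the siRNA set 2 arrays and those labelled overexpression overlapped each other about 1 unit higher. The difference from control was 1.64 ± 0.22 with siRNA set 2 (SE, adjusted p = 0.0160, limma), 1.70 ± 0.22 in the group labelled overexpression (adjusted p = 0.00968) and 0.63 ± 0.22 with siRNA set 1 (adjusted p = 0.344).

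Both receptor genes had several probes. Cx3cr1, the receptor for CX3CL1, was read by a pair of probes. On the brighter one its levels were -2.62, -2.55 and -2.95 with siRNA set 1, -1.65, -2.16 and -1.60 with siRNA set 2, -1.82, -2.12 and -1.60 on the arrays labelled overexpression, and -3.75, -3.45 and -3.17 with control siRNAs. No array of the other groups reached down to the controls, and siRNA set 1 again lay between. The difference was 1.65 ± 0.21 with siRNA set 2 (SE, adjusted p = 0.0116, limma), 1.61 ± 0.21 in the group labelled overexpression (adjusted p = 0.0107) and 0.75 ± 0.21 with siRNA set 1 (adjusted p = 0.220). The second probe had levels of -5.20, -4.91 and -5.22 with siRNA set 1, -4.12, -4.80 and -4.18 with siRNA set 2, -4.59, -4.76 and -3.96 on the arrays labelled overexpression, and -5.64, -5.54 and -5.57 with control siRNAs. It too had all controls lowest, with smaller differences between groups. Fitted by itself among all named probes, it differed by 1.22 ± 0.23 with siRNA set 2 (adjusted p = 0.0466), by 1.15 ± 0.23 in the group labelled overexpression (adjusted p = 0.122) and by 0.47 ± 0.23 with siRNA set 1 (adjusted p = 0.581).

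Csf1r, the receptor for CSF1 and IL-34, was not called. Its brightest probe had levels of 2.31, 0.58 and 2.24 with siRNA set 1, 2.31, 1.25 and 2.19 with siRNA set 2, 2.38, 1.24 and 2.04 on the arrays labelled overexpression, and 2.50, 1.01 and 2.26 with control siRNAs. The groups overlapped throughout, and the array of slide 2 was the lowest in every group. The difference was -0.21 with siRNA set 1, -0.00 with siRNA set 2 and -0.03 in the group labelled overexpression, with 95% intervals of -1.42 to 1.00, -1.21 to 1.21 and -1.24 to 1.18. Those intervals include differences as large as 1 log2 unit either way. They come from the fit without the slide block, which counts the drop shared by all groups on slide 2 as spread. Within slides 1, 2 and 3 the brightest probe differed from control by -0.19, -0.43 and -0.02 with siRNA set 1. It differed by -0.19, 0.24 and -0.06 with siRNA set 2, and by -0.12, 0.23 and -0.21 for labelled overexpression. A second probe (A_55_P2025073) also had slide 2 lowest in every group, with levels from -1.27 to -0.15 over all arrays. The third and dimmest (A_52_P602091) ranged from -5.25 to -3.25, and its lowest and its highest level were both controls. Its controls were -3.25, -5.25 and -4.93 on slides 1, 2 and 3. Every other array lay below the control of slide 1 and above those of slides 2 and 3. Within slides 1, 2 and 3 this probe differed from control by -1.23, 0.48 and 0.37 with siRNA set 1. The values were -1.24, 0.44 and 0.50 with siRNA set 2, and -0.95, 0.53 and 0.68 for labelled overexpression. No Csf1r probe was called in any comparison, and the differences of the 3 probes from control lay between -0.21 and 0.09. The 3 probes lay at very unlike levels, and the brightest, read for the gene, gave 1392 to 3925 signal units. Which of them reads the Csf1r transcript of microglia is not known here.

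The genes of the C1q chains lie next to each other on mouse chromosome 4. C1qa levels were -4.92, -4.50 and -4.62 with siRNA set 1, -3.97, -4.01 and -3.78 with siRNA set 2, -4.28, -3.64 and -4.21 on the arrays labelled overexpression, and -6.26, -6.92 and -5.09 with control siRNAs. Only 1 of the 3 control arrays, that of slide 3, was well above background for this probe, and the controls lay below all other arrays. C1qa was higher by 2.17 ± 0.37 with siRNA set 2 (SE, adjusted p = 0.0320, limma). The differences of 2.05 ± 0.37 in the group labelled overexpression (adjusted p = 0.0769) and 1.41 ± 0.37 with siRNA set 1 (adjusted p = 0.182) did not pass. With dim control arrays raised to the lowest signal well above background, these 3 differences were 1.97, 1.85 and 1.21.

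C1qc had levels of -3.23, -3.98 and -3.97 with siRNA set 1, -2.53, -3.15 and -2.91 with siRNA set 2, -2.78, -3.08 and -2.67 on the arrays labelled overexpression, and -5.07, -4.82 and -4.01 with control siRNAs. The lowest siRNA set 1 arrays were barely above the highest control, and the other groups were well clear of it. The difference was 1.77 ± 0.30 with siRNA set 2 (SE, adjusted p = 0.0320, limma), 1.79 ± 0.30 in the group labelled overexpression (adjusted p = 0.0438) and 0.91 ± 0.30 with siRNA set 1 (adjusted p = 0.304).

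For C1qb the spread was narrower. Its levels were -3.78, -3.65 and -3.73 with siRNA set 1, -3.06, -3.35 and -3.09 with siRNA set 2, -3.23, -3.45 and -3.16 on the arrays labelled overexpression, and -3.80, -4.43 and -3.62 with control siRNAs. The siRNA set 1 arrays lay inside the range of the controls, and the other groups lay above it. C1qb differed by 0.78 ± 0.19 with siRNA set 2, which did not pass (SE, adjusted p = 0.0952, limma) but did with the slide as a block (adjusted p = 0.0444). The differences of 0.67 ± 0.19 in the group labelled overexpression (adjusted p = 0.373) and 0.23 ± 0.19 with siRNA set 1 (adjusted p = 0.801) did not pass.

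Vav1 encodes a signalling protein of blood cells that acts downstream of immune receptors. Its tested probe had levels of -4.51, -4.39 and -4.87 with siRNA set 1, -3.72, -3.68 and -3.83 with siRNA set 2, -3.89, -4.16 and -3.88 on the arrays labelled overexpression, and -5.63, -5.86 and -4.99 with control siRNAs. The groups did not overlap at all for this gene, with the controls lowest and siRNA set 2 highest. Vav1 had the smallest adjusted p of the 10 genes with siRNA set 2, at a difference of 1.75 ± 0.21 (SE, adjusted p = 0.00821, limma). It was higher by 1.52 ± 0.21 in the group labelled overexpression (adjusted p = 0.0144), and the difference of 0.90 ± 0.21 with siRNA set 1 did not pass (adjusted p = 0.128).

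Cyth4 encodes cytohesin 4, an exchange factor for ARF GTPases found mainly in blood cells. Its levels were -4.23, -4.28 and -4.48 with siRNA set 1, -3.54, -4.30 and -3.25 with siRNA set 2, -3.70, -3.97 and -3.50 on the arrays labelled overexpression, and -6.05, -5.37 and -5.03 with control siRNAs, of which 2 of 3 were well above background. All other arrays lay above the controls, and the siRNA set 2 array of slide 2 lay within the range of siRNA set 1. The difference was 1.79 ± 0.30 with siRNA set 2 (SE, adjusted p = 0.0320, limma), 1.76 ± 0.30 in the group labelled overexpression (adjusted p = 0.0484; 0.0501 with the slide as a block) and 1.15 ± 0.30 with siRNA set 1 (adjusted p = 0.169).

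Ptprc, which encodes CD45, the surface phosphatase carried by nearly all nucleated blood cells, stayed within a narrow range. Its levels were -5.26, -5.56 and -5.45 with siRNA set 1, -5.77, -5.30 and -5.51 with siRNA set 2, -5.82, -5.48 and -5.37 on the arrays labelled overexpression, and -5.61, -5.69 and -5.88 with control siRNAs. Only the siRNA set 1 arrays were all above the controls. The difference was 0.31 with siRNA set 1, 0.20 with siRNA set 2 and 0.17 in the group labelled overexpression, with 95% intervals of -0.05 to 0.67, -0.16 to 0.56 and -0.19 to 0.53. With siRNA set 2 and in the group labelled overexpression, the upper ends lie below the differences of the 7 genes in the same comparison. With siRNA set 1 the upper end lies above the difference of Aif1, 0.63. The Ptprc levels were close to the lowest level well above background, which was -6.98 to -6.01 over the arrays. This limits what the intervals can exclude.

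**Figure D2:**
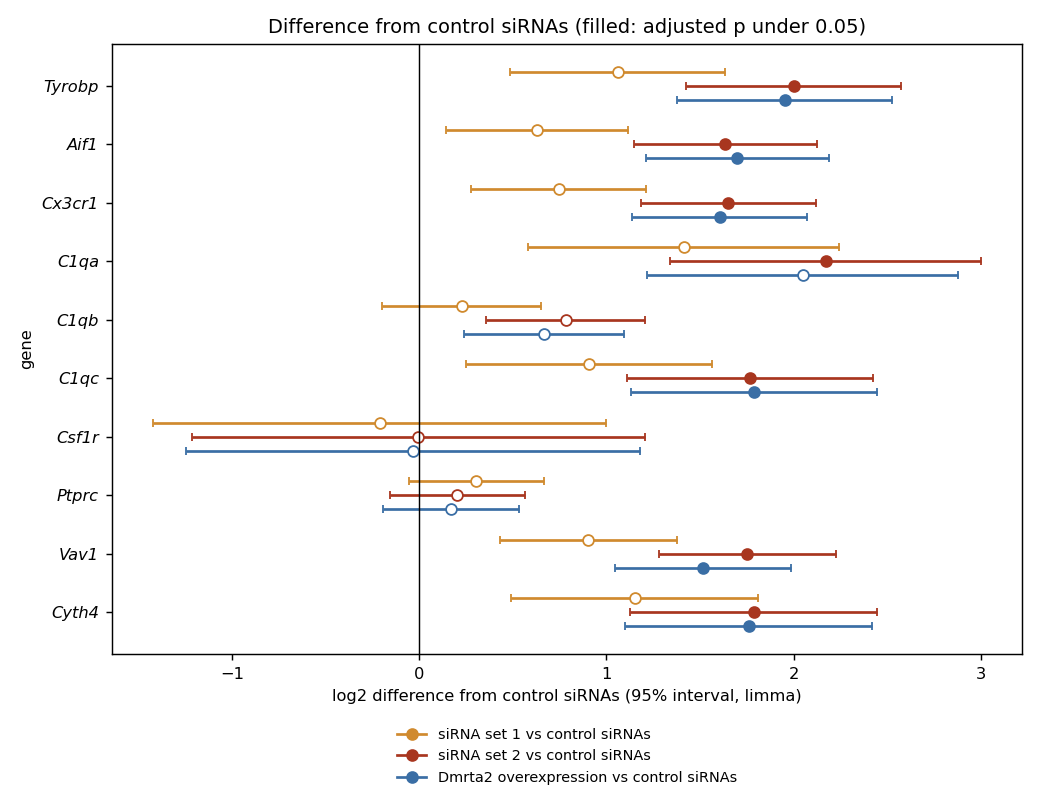
Log2 difference from control siRNAs (x axis) with its 95% interval from limma for each gene (y axis), for siRNA set 1, siRNA set 2 and the group labelled Dmrta2 overexpression; filled points have an adjusted p under 0.05. The filled points number 0 for siRNA set 1, 7 for siRNA set 2 and 6 for the group labelled overexpression.

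The slides differed in how far the controls lay below the other arrays. Over the 7 genes called with siRNA set 2, the median difference within slides 1, 2 and 3 was 1.35, 1.09 and 0.15 for siRNA set 1, 2.40, 1.67 and 1.23 for siRNA set 2, and 2.14, 1.70 and 1.34 for the group labelled overexpression. Slide 3 gave the smallest difference for all 7 genes with siRNA set 1, and for 5 of 7 in each of the other comparisons. The mean centred level was also taken over the 8 genes that were well above background on all arrays, Csf1r and Ptprc included. On slide 1 it was 0.03 for siRNA set 1, 0.65 for siRNA set 2, 0.48 for labelled overexpression and -0.84 for control. The values were -0.30, 0.30, 0.22 and -1.02 on slide 2 and -0.25, 0.50, 0.59 and -0.37 on slide 3, in the same order of groups. The control array was thus the lowest of its slide on all 3 slides, followed by siRNA set 1. On each slide the control array also had the smallest share of spots well above background. On slide 3 it was barely the smallest, at 68.885% beside 68.905% with siRNA set 1. The part of this share in the result was not tested.

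**Figure D3:**
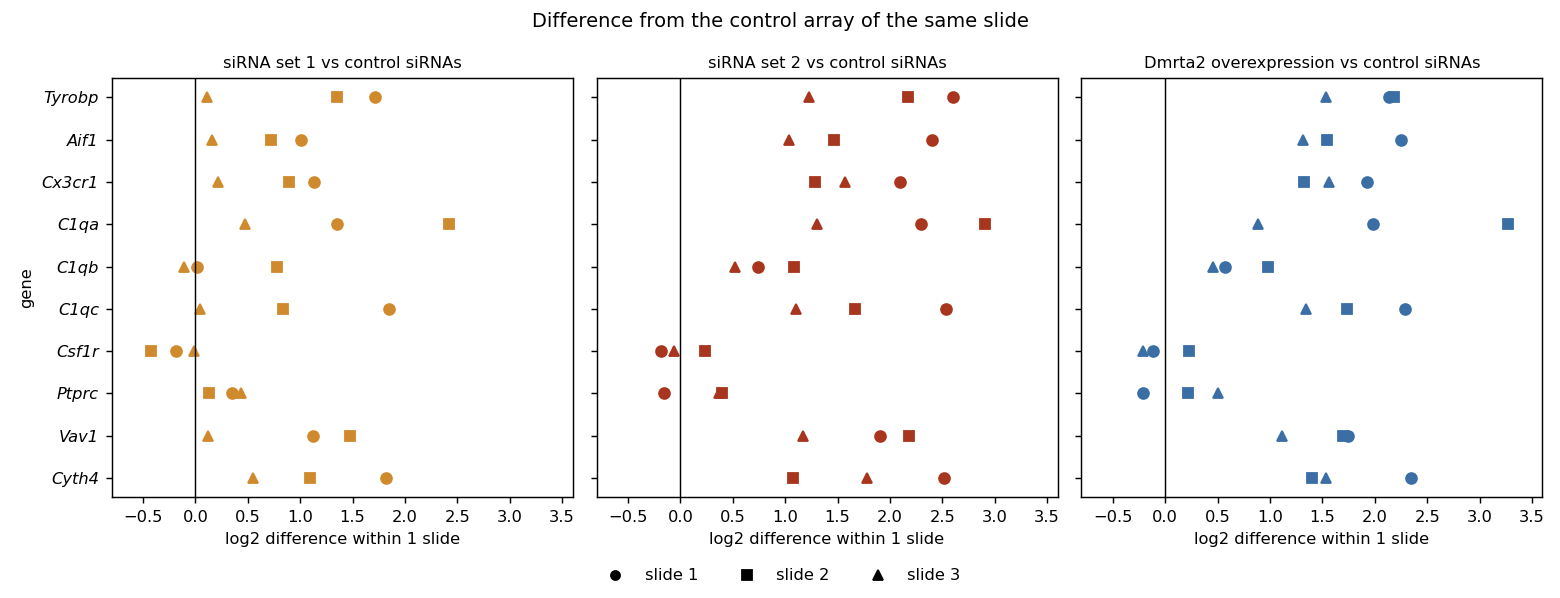
Log2 difference from the control array of the same slide (x axis) for each gene (y axis), in a panel each for siRNA set 1, siRNA set 2 and the group labelled Dmrta2 overexpression; symbols mark the slide. For 8 genes in each panel all 3 slides lie above 0, and slide 3 is the smallest for most of them. The share of all genes above 0 on all 3 slides was not taken.

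The treated groups were also set against each other. The 2 siRNA sets aim at the same genes, and the mean of siRNA set 2 was above that of siRNA set 1 for 9 of 10 genes, with a median difference of 0.80 beside 0.02 over all genes. None was called by limma, where 0.0325% of all genes were called higher and 0.0455% lower, and 6 had an unadjusted p under 0.05, against 4.63% of all genes. The lowest adjusted p was that of Aif1, at 1.01 ± 0.22 (SE, adjusted p = 0.132, limma), and Tyrobp differed by 0.94 ± 0.26 (adjusted p = 0.235). For 7 genes the siRNA set 2 arrays were all above the siRNA set 1 arrays, a pattern that 7.67% of all genes showed. Set against both siRNA sets averaged, the group labelled overexpression had no called gene, against 1.32% of all genes, and 2 genes (Aif1 and Cx3cr1) with an unadjusted p under 0.05, against 7.35% of all genes. For 0 of 10 genes were its arrays all above the 6 siRNA arrays, against 3.82% of all genes. No test was made of the group labelled overexpression against siRNA set 2 alone.

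Spi1 itself was not well above background on any array. The list of CSF1 and CX3C ligands and myeloid transcription factors had 11 of 12 genes tested, and none was called against control in any group. Csf1, the ligand of CSF1R, differed by 0.30 ± 0.16 with siRNA set 1, 0.18 ± 0.16 with siRNA set 2 and -0.01 ± 0.16 in the group labelled overexpression. Cx3cl1, the ligand of CX3CR1, had levels of -0.79, -0.39 and -0.65 on the arrays labelled overexpression, all above the control levels of -1.43, -1.18 and -1.22, by 0.67 ± 0.15 (SE, adjusted p = 0.169, limma; 0.0493 with the slide as a block). Cebpb, a transcription factor of myeloid and many other cells, had levels of -0.95, -0.63 and -1.01 on the arrays labelled overexpression, against -2.37, -2.73 and -2.83 with siRNA set 1, -2.21, -2.61 and -2.66 with siRNA set 2 and -1.55, -2.10 and -1.08 with control siRNAs. The siRNA arrays all lay below the controls, and the arrays labelled overexpression all above them. Neither difference from control passed, at -0.99 ± 0.21 for both siRNA sets (SE, adjusted p = 0.0758, limma) and 0.71 ± 0.25 for labelled overexpression (adjusted p = 0.659). It was higher in the group labelled overexpression than in both siRNA sets averaged, by 1.71 ± 0.21 (adjusted p = 0.00299).

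Among receptors and kinases that signal with TYROBP, 10 of 16 genes were tested and 1 was called, with siRNA set 2. That was Trem2, the lipid-sensing receptor that pairs with TYROBP. Its levels were -3.97, -3.46 and -3.97 with siRNA set 1, -2.78, -3.02 and -2.74 with siRNA set 2, -2.86, -3.70 and -2.71 on the arrays labelled overexpression, and -4.92, -5.09 and -3.93 with control siRNAs. The siRNA set 2 arrays and those labelled overexpression were all above the controls, while 1 of 3 siRNA set 1 arrays was. Trem2 was higher by 1.80 ± 0.33 with siRNA set 2 (SE, adjusted p = 0.0372, limma) and differed by 1.56 ± 0.33 in the group labelled overexpression (adjusted p = 0.132). The list's median difference was 0.18 with siRNA set 1, 0.77 with siRNA set 2 and 0.49 in the group labelled overexpression. Fcer1g, the other common adaptor of immune receptors, differed by 0.74 ± 0.17 with siRNA set 2 (adjusted p = 0.0809; 0.0376 with the slide as a block).

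Of the microglia markers outside the 10 genes, 10 of 12 were tested, with median differences of 0.26, 0.21 and 0.28 with siRNA set 1, siRNA set 2 and labelled overexpression. Tmem119, a microglial membrane protein that other cells such as osteoblasts also make, had levels of -3.94, -3.92 and -4.23 with siRNA set 1, -3.84, -4.29 and -4.39 with siRNA set 2, -3.19, -3.11 and -2.96 on the arrays labelled overexpression, and -4.60, -4.40 and -4.69 with control siRNAs. Here the arrays labelled overexpression stood apart from all others. The difference from control was 1.48 ± 0.16 (SE, adjusted p = 0.00297, limma), and that from both siRNA sets averaged was 1.01 ± 0.14 (adjusted p = 0.00486). P2ry13, a purine receptor, had an adjusted p of 0.0413 with siRNA set 2, but it was well above background on only 3 arrays, 2 of them of siRNA set 2 and none a control. It entered the test through the groups where it was high, so its call is no support and no fold is given. With the slide as a block P2ry6, another purine receptor, also passed with siRNA set 2, with an adjusted p of 0.0444; without the block the difference was 1.15 ± 0.24 (SE, adjusted p = 0.0528, limma).

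In the list around VAV, CYTH and CD45, 21 of 25 genes were tested, and Ptpn6, the phosphatase SHP-1, was called. It was not well above background on any control array, and it was at least 1.64-fold higher with siRNA set 2 (adjusted p = 0.0372, limma) and at least 1.80-fold higher in the group labelled overexpression (adjusted p = 0.0484). These bounds set the mean level against the lowest signal well above background on each control array. Ptpn6 was well above background on 8 arrays, none a control. It thus entered the test through the groups where it was high, and its call is no support. Mpeg1, perforin-2 of macrophages, was the only one of 14 tested phagocyte genes called against control without the slide block, higher by 1.39 ± 0.24 with siRNA set 2 (adjusted p = 0.0333). With the slide as a block Mertk, a receptor for the uptake of dead cells, passed with siRNA set 1 (adjusted p = 0.0177, limma) and for both sets averaged (adjusted p = 0.0156). Without the block its differences were 1.44 ± 0.36 (SE, adjusted p = 0.153) and 1.08 ± 0.31 (adjusted p = 0.170). The 14 tested phagocyte genes had median differences of 0.50, 0.63 and 0.43 with siRNA set 1, siRNA set 2 and labelled overexpression. In the complement list, 10 of 15 genes were tested and none was called against control.

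**Figure D4:**
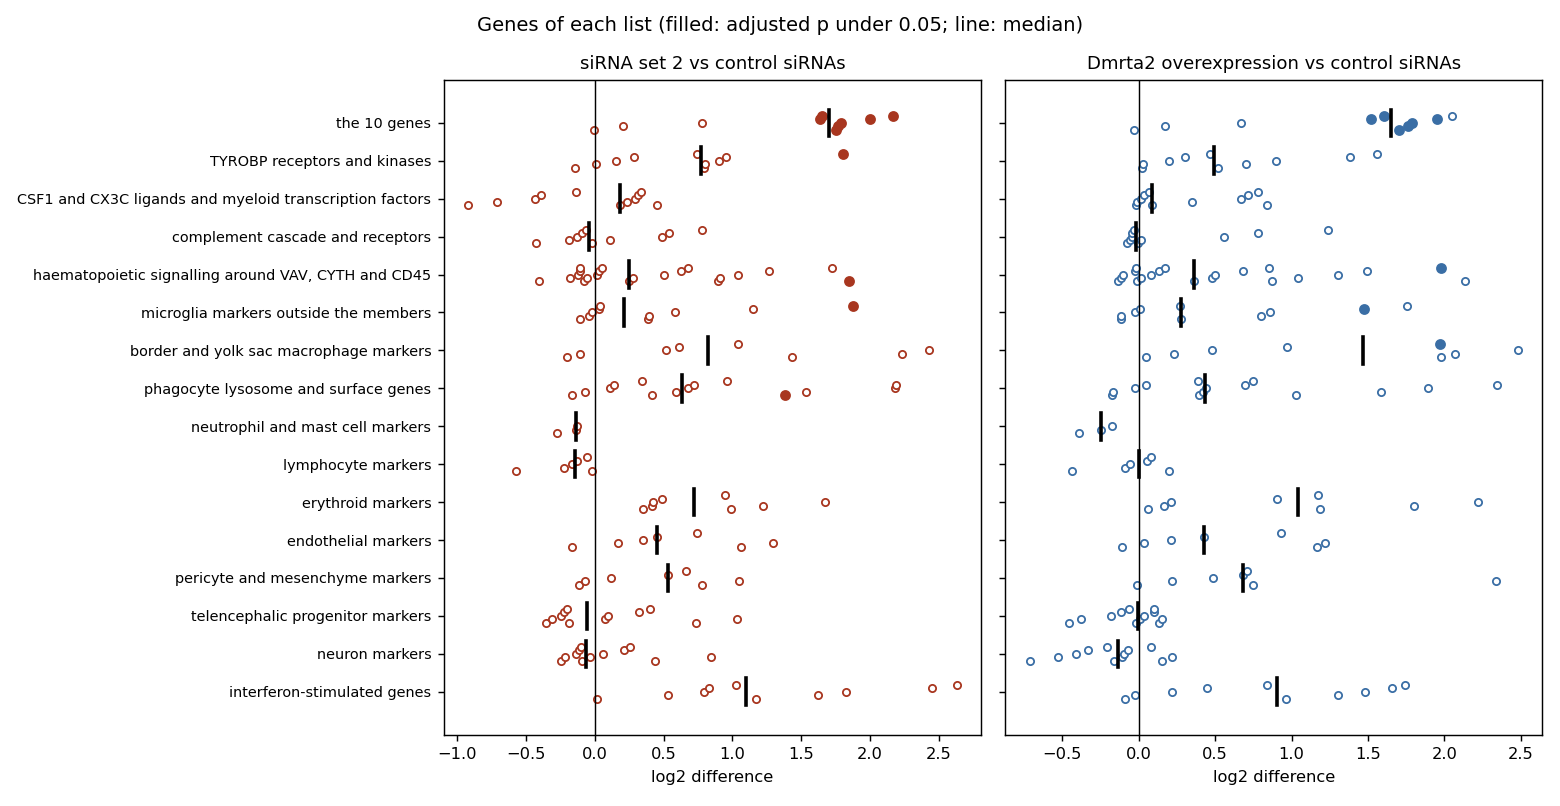
Log2 difference from control siRNAs (x axis) of the 10 genes and of each tested gene of the other lists (rows), for siRNA set 2 and the group labelled Dmrta2 overexpression; filled points have an adjusted p under 0.05 and the vertical line is the list's median. The medians of the 10 genes are 1.70 and 1.65, those of border and yolk sac macrophage markers 0.82 and 1.47, of interferon-stimulated genes 1.1 and 0.90 and of erythroid markers 0.72 and 1.04, and those of progenitor and neuron markers lie between -0.14 and -0.01.

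The sort was for GFP, so the cell types in the samples were checked from markers. The 12 markers of telencephalic progenitors and the 12 of neurons were well above background on all 12 arrays, with none called against control. For both siRNA sets averaged, the progenitor genes Pax6, at 1.06 ± 0.27 (SE, adjusted p = 0.117, limma), and Slc1a3, at 0.82 ± 0.17 (adjusted p = 0.0737), passed only with the slide as a block (adjusted p = 0.0376 and 0.0364). Against both siRNA sets averaged, Pax6 (-1.52, adjusted p = 0.0173, limma), Vim (-0.58, adjusted p = 0.0247) and Slc1a3 (-0.81, adjusted p = 0.0433) were lower in the group labelled overexpression, where 0.833% of all genes were called lower. Of the 18 phagocyte genes with a named probe, 9 were well above background on all arrays, among them Mpeg1 and Cyba, and 4 on none. Of the 12 microglia markers outside the 10 genes, 9 were well above background on all arrays and 0 on none. Neutrophil and mast cell markers gave 3 of 10 genes tested, all with means below control in each treated group and none called, and S100a8 and S100a9 were not well above background on any array. Lymphocyte markers gave 6 of 10 genes tested and none called, and Cd3d, Cd3g, Cd79b and Ms4a1 were not well above background on any array.

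Some other lists had positive median differences with few or no calls. All 8 tested erythroid markers had higher means than control in each treated group, with medians of 0.75, 0.72 and 1.04 with siRNA set 1, siRNA set 2 and labelled overexpression, and none called. Their summed level, in units of the 75th percentile, was 1.89 to 18.8 with siRNA set 1, 3.68 to 8.08 with siRNA set 2, 5.42 to 11.2 on the arrays labelled overexpression and 2.11 to 4.01 with control siRNAs. Of the markers of border and yolk sac macrophages 8 of 12 were tested, with median differences of 0.99, 0.82 and 1.47 with siRNA set 1, siRNA set 2 and labelled overexpression. Their summed levels were 0.150 to 0.50 (siRNA set 1), 0.207 to 0.303 (siRNA set 2), 0.240 to 0.303 (labelled overexpression) and 0.112 to 0.160 (control). Of those, Folr2 had an adjusted p of 0.0484 by limma in the group labelled overexpression (0.0635 with the slide as a block). It was well above background on only 4 arrays, 3 of them in that group and none a control, so it entered the test through the group where it was high and its call is no support. Cd163 and Timd4 were not well above background on any array.

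Among pericyte and mesenchyme markers, 7 of 10 were tested and none was called. Their median differences were 1.14, 0.53 and 0.68 with siRNA set 1, siRNA set 2 and labelled overexpression. The siRNA set 1 median was above that of the 10 genes, 0.83. The sums were 2.03 to 7.18 with siRNA set 1 and 1.56 to 1.73 with siRNA set 2. They were 1.20 to 1.89 on the arrays labelled overexpression and 1.07 to 1.53 with control siRNAs. Endothelial markers, 7 of 10 tested, had median differences of -0.06, 0.45 and 0.43 with siRNA set 1, siRNA set 2 and labelled overexpression and none called, and their summed levels overlapped between all groups. The 10 tested of 14 interferon-stimulated genes had median differences of 0.05, 1.1 and 0.90 with siRNA set 1, siRNA set 2 and labelled overexpression and none called. Their sums were 0.430 to 0.762, 0.475 to 4.06, 0.397 to 2.18 and, with control siRNAs, 0.468 to 0.806. Only 4 of the 8 tested border macrophage genes and 4 of the 10 tested interferon genes were well above background on all arrays. The part of these cell types and genes in the result was not tested.

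Genes whose profile over the 12 arrays was most like the mean of the 8 genes that were well above background on all arrays (all but C1qa and Cyth4) were sought among 13755 genes well above background on every array. The highest Pearson correlations were those of Trem2 (0.947), Mpeg1 (0.932), Mid1ip1 (0.921), Fcer1g (0.917), Rac2 (0.912), Tmbim1 (0.910), Itgb5 (0.887) and Mtfr1l (0.881). The arrays share slides and groups, so these values only describe likeness over these 12 arrays. Of the 10 genes themselves, 8 correlated with that mean at 0.897 to 0.984, and Csf1r and Ptprc at 0.246 and 0.197. All of the 10 but C1qa and Cyth4 were part of that mean, so their correlations with it are in part built in. Itgb5, an integrin subunit, was higher by 1.37 ± 0.20 with siRNA set 2 (SE, adjusted p = 0.0285, limma). Tmbim1, a membrane protein gene, was higher by 0.74 ± 0.12 in the group labelled overexpression (adjusted p = 0.0438). Both were picked for their likeness to the 10 genes on these same arrays, so their p-values are no independent support.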

How the data were processed

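RNA of GFP-sorted cells was labelled with Cy3 and hybridised to 1-colour Agilent arrays, with 3 arrays in each of 4 groups. Per the file headers, the deposited scanner files were made with Agilent Feature Extraction 10.5.1.1. Per the file headers, their processed signal is a linear intensity after background subtraction and detrending, with no scaling across arrays. The authors also deposited a table of log2 values for these arrays, which was used only as an alternative; it correlated with the values used here at 0.999105 to 0.999811, its column medians were -0.130 to 0.0960, and its centring is not stated.

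Control spots and spots with an outlier flag (136 to 218 an array) were left out, and no spot used was saturated. Signals were averaged per probe, turned to log2, and each array's 75th percentile was subtracted. Of 39429 probes, 26055 were named through RefSeq accessions and 13374 were not. Named probes well above background on at least 3 of 12 arrays were kept (20228), and each gene was read by its probe with the highest mean. The 15370 genes were fitted with limma 3.58.1 in R 4.3.3 (lmFit and eBayes, 1 term a group, 8 residual degrees of freedom, two-sided, Benjamini-Hochberg over all genes). The procedure was tested on simulated data.

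Replicate numbers coincide with slides: same-numbered arrays' deviations from group means correlated at 0.0208 to 0.600 over 18 pairs, and differently numbered ones at -0.516 to 0.212 over 36. The slide marks a shared batch, so it was fitted as a block as an alternative.

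The 10 genes and 15 lists of 200 genes were chosen with earlier results of these data known. Named are the 10 genes, the targeted genes, every list gene that passed the test with up to 2 more from a list, and the 8 genes most like the 10 in profile. Alternatives were quantile normalization, the deposited table, other filters on dim probes, outlier flags kept, the mean of a gene's probes, the slide block, each array left out, and, chosen after seeing the data, local background subtraction with an offset of 50. The number of arrays limits the precision.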

Additional observations from a re-analysis of the deposited data

How the results depend on the processing

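The 7 genes called with siRNA set 2 lay above control in every alternative that measured them, in each comparison with control, but the number called depended on the setting. With both siRNA sets averaged, 7 genes were called, against 1 after local background subtraction with an offset of 50, 3 with no filter on dim probes, and 0 to 6 when single arrays were left out. With siRNA set 2 the 7 called became 2 with the offset, 4 with no filter and 0 to 7 without single arrays. In the group labelled overexpression the 6 called became 2 with the offset and 0 to 7 without single arrays. For siRNA set 1 it was 0 to 1 without single arrays, and 0 otherwise. With the slide as a replicate block 7, 0, 8 and 5 genes were called for both sets, set 1, set 2 and labelled overexpression. The share of all genes called was taken only for the fit with all arrays and no block. Whether these changes in counts go beyond changes over all genes is therefore not known here. With the offset, Tyrobp, Cx3cr1 and Vav1 differed by 1.01, 1.11 and 0.62 with siRNA set 2. Ptprc changed sign with the offset, to -0.0057 for both sets, -0.025 for set 1, 0.038 for set 2 over set 1 and 0.26 for labelled overexpression over siRNA. Csf1r was 0.0067 for set 2 after quantile normalization. Without single arrays, Csf1r ranged over -0.56 to 0.18 (both sets), -0.67 to 0.35 (set 1), -0.46 to 0.33 (set 2), -0.49 to 0.29 (labelled overexpression), -0.36 to 0.54 (set 2 over set 1) and -0.21 to 0.40 (labelled overexpression over siRNA). C1qb ranged over -0.015 to 0.39 (set 1), and Ptprc over -0.22 to 0.020 (set 2 over set 1) and -0.18 to 0.047 (labelled overexpression over siRNA). The cause was not tested. Each fit without 1 array leaves 2 arrays in that group, and the spread is pooled over groups. The planned normexp correction was not run: its fitted background mean was -1369 on overexpression replicate 1 and -211 on siRNA set 1 replicate 2, where the first percentile of spot minus background was -1 and -4.5. Signals of 9 of the 10 genes were close to background, with a median of 51.2 units.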
